A study of Drosophila melanogaster with 12 samples.

Results

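Enteroblasts (EBs) purified from Hey RNAi flies were compared with whole guts of Hey RNAi flies, to see how much of the difference between progenitors and gut tissue is kept, narrowed or widened when Hey is depleted on both sides. The members are the 3 arrays labelled as Hey RNAi EBs and the 3 labelled as Hey RNAi guts, 6 of the 12 arrays of the series. The other 6, 3 of control EBs and 3 of control guts, gave the same difference without Hey RNAi and share no array with it. All samples are total RNA of adult Drosophila melanogaster females, which grew up at 18 °C and spent 2 days at 29 °C. By the methods of the study, the gut driver came with a temperature-sensitive repressor, which holds it off until the shift to 29 °C. None is named for the EB cross, so the time at which Hey RNAi began in EBs is not known here. The labels give an age of 2 to 4 days at that shift, but by the methods of the study the EB flies were kept at 18 °C for some further days first, so their age at the shift was higher and varied. In Hey RNAi EBs, Hey-Gal4 drove UAS-Hey RNAi together with the membrane marker mCD8GFP, by which the cells were isolated with magnetic beads. In Hey RNAi guts, MyoIA-Gal4 drove UAS-Hey RNAi in enterocytes (ECs), and RNA was taken from the whole gut. Control EBs and control guts carried the same drivers with UAS-GFP.

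In the adult midgut, stem cells give rise to EBs, which mature into ECs, the large polyploid cells that digest and absorb food. Maturation follows Notch signalling from the stem cell to the EB. Hey is a basic helix-loop-helix repressor of the HES and Hey family, related to the classical Notch targets, and the study asked whether it maintains the identity of ECs. Nuclear lamins, the intermediate filament proteins under the nuclear envelope, were the other subject of the study. Lam and LamC, like Hey itself, could not be paired with a transcript and were not analysed here, so neither the depletion of Hey nor the level of any lamin was checked.

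The comparison holds more than the cell type. The tissues also differed in the driver, in the purification, in the age at the shift and possibly in when Hey RNAi began. These cannot be told apart. Hey-Gal4 is described as a driver for EBs with slight activity in stem cells, and purified preparations can hold other cells. Whole guts also hold EBs and other cells in which RNAi was not driven. In such bulk RNA, fewer cells of a type and less RNA per cell cannot be told apart. The identity of EBs and guts could not be checked against markers. Of 420 genes in the lists of markers and pathways, 2 could be paired with a transcript, LanA of the basement membrane list and sle of the ribosome biogenesis list, and none of the progenitor, enterocyte or enteroendocrine markers could.

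The arrays carry 15473 transcripts, given by FlyBase transcript identifier. A gene symbol was found for 44 of them, 9 under their own identifier and 35 through a synonym that names a reading frame of that transcript. The transcript of 27 of these 35 carries several genes, and their value cannot be assigned to a particular gene. Results on single genes below are therefore limited to these 44, and counts over all transcripts stand for the rest.

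Hey RNAi EBs were less alike than Hey RNAi guts. Across transcripts, log2 intensities correlated at r = 0.929 to 0.956 among the 3 EB arrays and at 0.989 to 0.990 among the 3 gut arrays. EB arrays correlated with gut arrays at 0.830 to 0.893, so that every EB array was closer to the other EBs than to any gut. Hey RNAi EB 1 lay farthest from the guts, at 0.830 to 0.837, against 0.884 to 0.893 for Hey RNAi EBs 2 and 3. The median SD of a transcript was 0.41 log2 units in Hey RNAi EBs and 0.16 in Hey RNAi guts, and the SD was larger in EBs for 83.7% of transcripts. The median deposited intensity lay between 589.2 and 877.6 units on the 6 arrays. By mean intensity the 12 arrays fell into 5 sets, and Hey RNAi EB 3 and Hey RNAi gut 2 were the only EB and gut arrays of Hey RNAi flies in the same set. Between these 2 arrays, which also entered the calls below, the median difference of EB minus gut was 1.52 log2 units over the transcripts called higher in EBs and -1.89 over those called lower.

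Hey RNAi EBs and Hey RNAi guts differed widely. In limma, 4322 of the 15473 transcripts (27.9%) had a Benjamini-Hochberg adjusted p under 0.05 and a difference of at least 2-fold, and these are the transcripts called here. Of these, 2147 (13.9%) were higher and 2175 (14.1%) lower in EBs. This split depended on the scaling, with 2557 higher and 1891 lower when every array was centred on its median (57.5% of calls higher in place of 49.7%), and with no fold limit 3226 were higher and 2725 lower. The lower transcripts differed more, with a median log2 difference of -2.0 against 1.52 among the higher ones, and 1088 were at least 4-fold lower while 466 were at least 4-fold higher. The 3 EB values lay on the same side of all 3 gut values for each of the 4322 called transcripts, and for 8732 transcripts (56.4%) in all, with EBs above the guts for 32.1% of transcripts and below them for 24.3%. The median transcript differed by 0.19 log2 units. Centring every array on its median in place of quantile normalization shifted this up by 0.23, and no further normalization shifted it by 0.18.

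The transcripts that were lower in EBs were bright in guts, a contrast that their choice on these same arrays favours. The levels that follow are therefore a description. The median of the 2175 lay at the percentile 43.1 of all transcripts in Hey RNAi EBs and at 67.7 in Hey RNAi guts. Of these 2175, 1.15% were among the brightest 10% of transcripts in EBs and 17.6% among those in guts. The transcripts higher in EBs mirrored this less steeply, with a median percentile of 65.8 in EBs and 48.2 in guts. Of these 2147, 12.6% were among the brightest 10% of transcripts in EBs and 0.47% among those in guts. Calls were most common among transcripts of middle intensity, at 42.7%, against 25.7% of the 5158 brightest and 15.4% of the 5157 dimmest.

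The transcripts with symbols show both directions. The share called among the 44 was 22.7%, below the 27.9% of all transcripts, and the median absolute difference was 0.69 log2 units, against 0.70 over all transcripts. Of the 10 called, 5 were higher and 5 lower in EBs, and for 36 of the 44 (81.8%, beside 56.4% of all transcripts) the 3 EB values did not overlap the 3 gut values.

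LanA encodes a laminin chain of the basement membrane, the sheet of matrix on which the epithelium rests. Its log2 intensity was 13.05, 12.85 and 12.70 in the 3 Hey RNAi EBs, against 10.84, 11.30 and 11.21 in the 3 Hey RNAi guts. The difference was 1.75 ± 0.20 log2 units (SE; limma adjusted p = 0.0016). Every EB array was more than a log2 unit above every gut array. In controls the same difference was 2.87 ± 0.23 (SE; limma adjusted p = 0.000325), and the change of the difference, -0.99 ± 0.30 (SE), missed the threshold (limma adjusted p = 0.0563). LanA was the only gene of the haemocyte and basement membrane list that could be paired with a transcript, so nothing can be said of the list as a whole.

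The gene sle encodes a nucleolar protein. It was measured at 12.68, 13.07 and 12.73 in Hey RNAi EBs, against 11.74, 11.62 and 11.70 in Hey RNAi guts, a difference of 1.14 ± 0.18 log2 units (SE; limma adjusted p = 0.00421). The groups did not overlap, and the gut arrays agreed closely. In controls the difference was 1.78 (limma adjusted p = 0.00222). The transcript of lmgB and lmgA, of which lmgA encodes a subunit of the anaphase-promoting complex that triggers exit from mitosis, gave 11.45, 11.33 and 11.14 in Hey RNAi EBs, against 10.06, 9.93 and 9.89 in Hey RNAi guts. At 1.35 log2 units in Hey RNAi flies and 1.59 in controls, its difference was called in both comparisons. The call of sle in Hey RNAi flies was lost when the deposited values were tested with no further normalization (1.02 log2 units; limma adjusted p = 0.059).

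The other 2 called transcripts that were higher in Hey RNAi EBs were not called in controls. The transcript of CG32573 and CG42512 was at 9.76, 9.08 and 9.11 in Hey RNAi EBs, against 7.00, 7.31 and 6.47 in Hey RNAi guts, a difference of 2.39 ± 0.30 log2 units (SE; limma adjusted p = 0.00212). That of CG30100 and CG42372 was at 12.47, 12.16 and 12.18 in Hey RNAi EBs, against 11.24, 11.14 and 11.06 in Hey RNAi guts, a difference of 1.12 ± 0.17 (SE; limma adjusted p = 0.00397). In both, the EB arrays stood above all gut arrays, and the control differences were -0.35 (limma adjusted p = 0.343) and 0.32 (limma adjusted p = 0.164).

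Among the 5 transcripts lower in EBs were those of NaPi-III and Fatp1. NaPi-III, a phosphate transporter, was at 5.80, 7.06 and 6.42 in Hey RNAi EBs, against 9.74, 9.93 and 10.23 in Hey RNAi guts. The difference of -3.54 ± 0.35 log2 units (SE; limma adjusted p = 0.000997) was the largest among the 44, and the control difference was -3.18 (limma adjusted p = 0.00227). Fatp1, a fatty acid transport protein, was at 9.89, 10.53 and 10.76 in Hey RNAi EBs, against 12.67, 12.34 and 12.53 in Hey RNAi guts, a difference of -2.12 ± 0.27 (SE; limma adjusted p = 0.00208). Hey RNAi EB 1 held the lowest value of both genes. The transcript of CG17325 and CG42305 (-2.69), CG16974 (-1.59) and the transcript of CG6191 and CG45088 (-1.05) were also called lower, with limma adjusted p from 0.000786 to 0.00763. The transcript of CG17325 and CG42305 lay at the percentile 2.57 in Hey RNAi EBs, among the dimmest of the array, which limits the precision of its size, and the filter on the dimmest transcripts left it out. For CG6191 and CG45088 the difference shrank below 2-fold, to -0.90, without Hey RNAi gut 3. All 5 lower transcripts, and 3 of the 5 higher ones, were called the same way in controls.

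**Figure D1:**
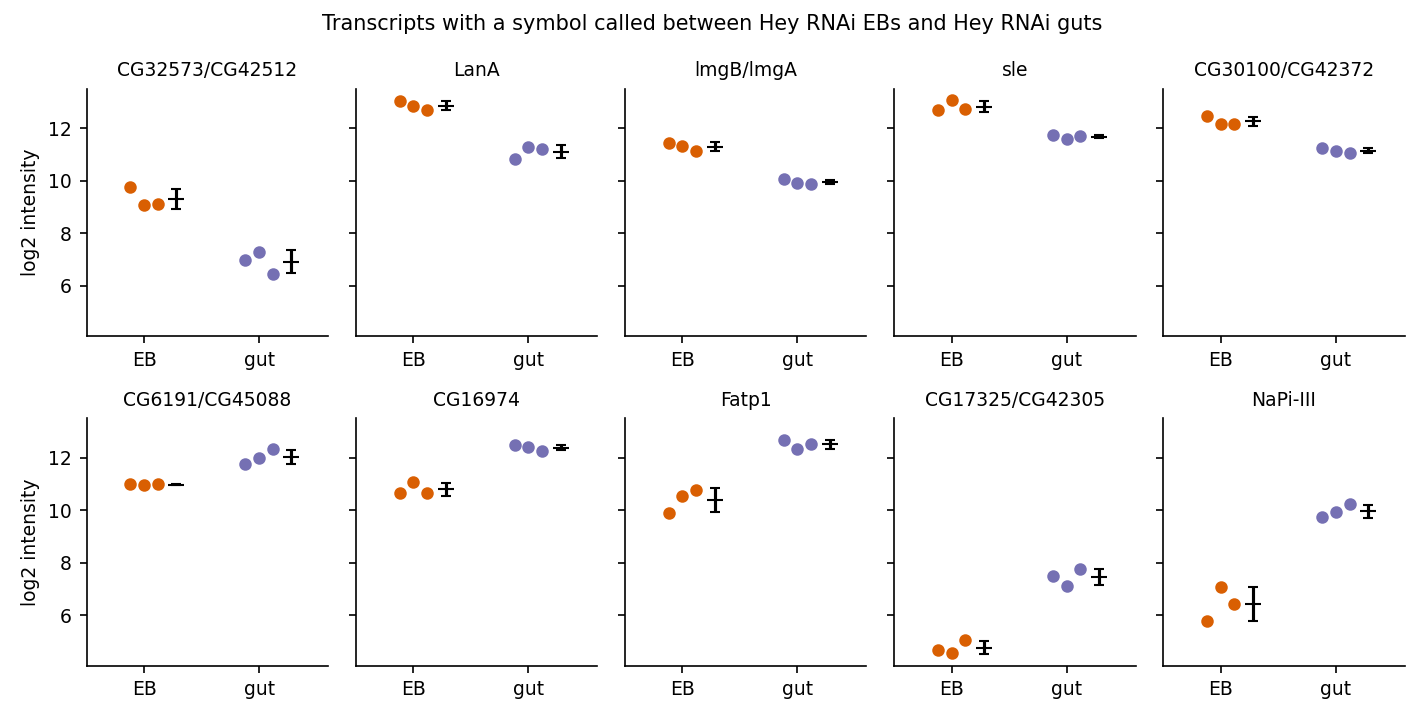
Log2 intensity (y axis, quantile normalized over the 6 arrays) of the 10 called transcripts with a symbol, with a point for each Hey RNAi EB array on the left and each Hey RNAi gut array on the right of a panel; ticks with bars give the mean and SD (n = 3). EB points lie above all gut points in the upper row, from CG32573/CG42512 (2.39) to CG30100/CG42372 (1.12), and below them in the lower row, from CG6191/CG45088 (-1.05) to NaPi-III (-3.54).

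The remaining 34 transcripts with a symbol were not called, with differences from -1.61 to 1.62 log2 units. For 26 of them (76.5%) the EB and gut values did not overlap. The 56.4% of all transcripts is not a like background, since it includes the 4322 called ones, whose groups never overlapped. The share among all transcripts not called must therefore lie below 56.4%. The 76.5% of these 34 thus lay above it. Several of the 34 had a limma adjusted p under 0.05 with less than a 2-fold difference. HDAC3, a histone deacetylase, differed by 0.68 (limma adjusted p = 0.0307). The transcript of vnc, an N-terminal acetyltransferase, and CG42455 differed by 0.66 (limma adjusted p = 0.017). The transcript of PIG-P, an enzyme of GPI anchor synthesis, and Tcs6 differed by 0.86 (limma adjusted p = 0.0141). The membrane skeleton protein alpha-Spec, at 0.46 (limma adjusted p = 0.134), and the chromatin remodeller kis, at -0.30 (limma adjusted p = 0.479), missed the threshold. These examples were picked after their values were seen.

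Among transcripts without a symbol, the differences with the largest size exceeded those of all 44. FBtr0074324 was at 12.63, 13.14 and 13.04 in Hey RNAi EBs, against 5.87, 5.59 and 5.72 in Hey RNAi guts, and FBtr0085944 at 12.29, 12.28 and 12.57 in EBs, against 5.70, 6.12 and 6.65 in guts. FBtr0084810 was at 5.01, 4.88 and 4.50 in Hey RNAi EBs, against 13.27, 13.43 and 12.91 in Hey RNAi guts, and FBtr0085860 at 4.64, 4.21 and 4.81 in EBs, against 12.20, 12.03 and 13.04 in guts. These correspond to log2 differences of 7.21, 6.23, -8.41 and -7.87, with limma adjusted p from 9.9e-05 to 0.000152. The low side of all 4 lay among the dim transcripts, at the percentiles 13.7 and 19.7 of Hey RNAi guts for the first pair and 2.72 and 1.44 of Hey RNAi EBs for the second, which limits the precision of these sizes. No gene can be named for them here.

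Most differences of Hey RNAi flies had the same direction in controls. Of the 4322 transcripts called in Hey RNAi flies, 471 had a control difference of the opposite sign. In controls, 4605 transcripts (29.8%) were called, 2487 (16.1%) higher and 2118 (13.7%) lower in EBs. Of the transcripts called in either comparison, 2374 were called the same way in both, which is 54.9% of the Hey RNAi calls and 51.6% of the control calls. Transcripts lower in EBs were shared more, at 1302, or 59.9% of the Hey RNAi calls and 61.5% of the control calls. Those higher in EBs were shared at 1072, or 49.9% and 43.1%. Calls in opposite directions were few, with 31 transcripts higher in EBs of Hey RNAi flies and lower in EBs of controls, and 25 the other way.

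**Figure D2:**
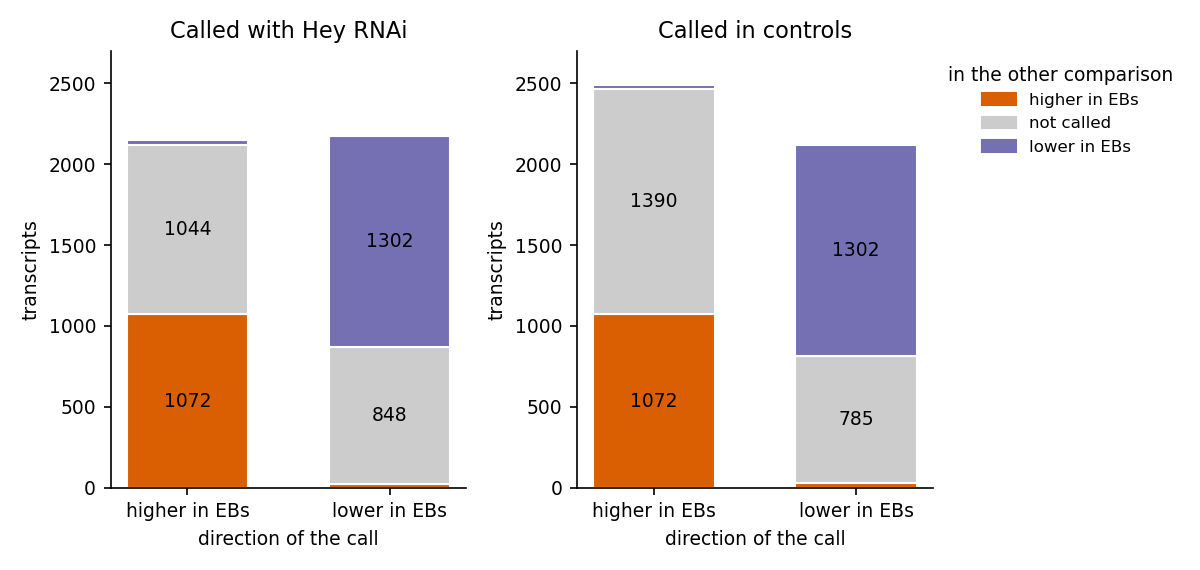
Number of transcripts (y axis) called higher or lower in EBs than in guts (x axis), with Hey RNAi on the left and in controls on the right, coloured by the call of the same transcripts in the other comparison. The shared calls, 1072 higher and 1302 lower, appear in both panels, and the opposite calls are the thin bands of 31 and 25.

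Larger differences were shared more often. Of the transcripts at least 4-fold lower in Hey RNAi EBs, 854 of 1088 (78.5%) were also called lower in control EBs, and of those at least 4-fold higher, 305 of 466 (65.5%) were also called higher there. Of the 100 transcripts with the most negative difference in Hey RNAi flies, 49 were among the 100 most negative in controls and 94 were called lower in control EBs. Of the 100 with the most positive difference, 28 were among the 100 most positive in controls, 71 were called higher there and 14 had a control difference below 0. By each of these counts, transcripts low in EBs were shared more than transcripts high in EBs, as a description with no test. The counts do not separate direction from size. Of transcripts 2 to 3 log2 units lower in control EBs, 61.9% were called the same way with Hey RNAi, against 62.6% of those as much higher. For 1 to 2 units these shares were 42.0% and 34.7%. By the size of the Hey RNAi difference, the shares called the same way in controls were 70.1% and 61.1% for 2 to 3 units. For 1 to 2 units they were 40.7% and 37.7%.

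A transcript called in only a single comparison is not shown to have lost its difference in the other. The 1390 transcripts called higher in control EBs but not called in Hey RNAi flies still had a median difference of 0.46 log2 units there, against 1.36 in controls, and 1060 kept its sign. For 417 of them (30%) the test of the change in difference, given below, passed. Among the 848 transcripts called lower in EBs of Hey RNAi flies alone, the median was -1.55 with Hey RNAi and -0.34 in controls, and for 365 (43.0%) that test passed. It passed for 28.8% of the 1044 called higher with Hey RNAi alone and for 26.1% of the 785 called lower in controls alone. The share was 6.16% and 8.53% among calls shared higher and lower, and 12.8% of all transcripts. Choice by a call in a single comparison on these same arrays favours a changed difference.

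The size of the differences was smaller on average in whichever comparison had not been used to choose the transcripts. Among control calls, the median ratio of the Hey RNAi difference to the control difference was 0.68, at 0.63 for transcripts higher in EBs and 0.75 for those lower. Among Hey RNAi calls, the median ratio of the control difference to the Hey RNAi difference was 0.72, at 0.68 and 0.77. The SD over all transcripts was 1.32 log2 units in Hey RNAi flies and 1.38 in controls. The values of all transcripts thus spread about equally in both, and a ratio below 1 in a chosen list does not by itself mean that Hey RNAi narrowed the difference.

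Over all 15473 transcripts, which are not independent replicates, the Hey RNAi difference followed the control difference with a slope of 0.67, r = 0.70 and Spearman's rho of 0.58. With the error variance of the arrays taken off, the slope was 0.73 and r was 0.77. The slope was 0.75 where the control difference was below 0 and 0.51 where it was above 0. Taken array by array against the mean of the Hey RNAi guts, the slopes were 0.77, 0.66 and 0.58 for Hey RNAi EBs 1, 2 and 3, so the EB array that lay farthest from the guts also followed the control difference most steeply. The 311 transcripts more than 4 log2 units lower in control EBs had a median Hey RNAi difference of -3.48, against a control median of -4.61, and 96.1% kept the sign. The 90 transcripts at least 3 log2 units higher in control EBs had medians of 2.42 with Hey RNAi and 3.40 in controls.

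**Figure D3:**
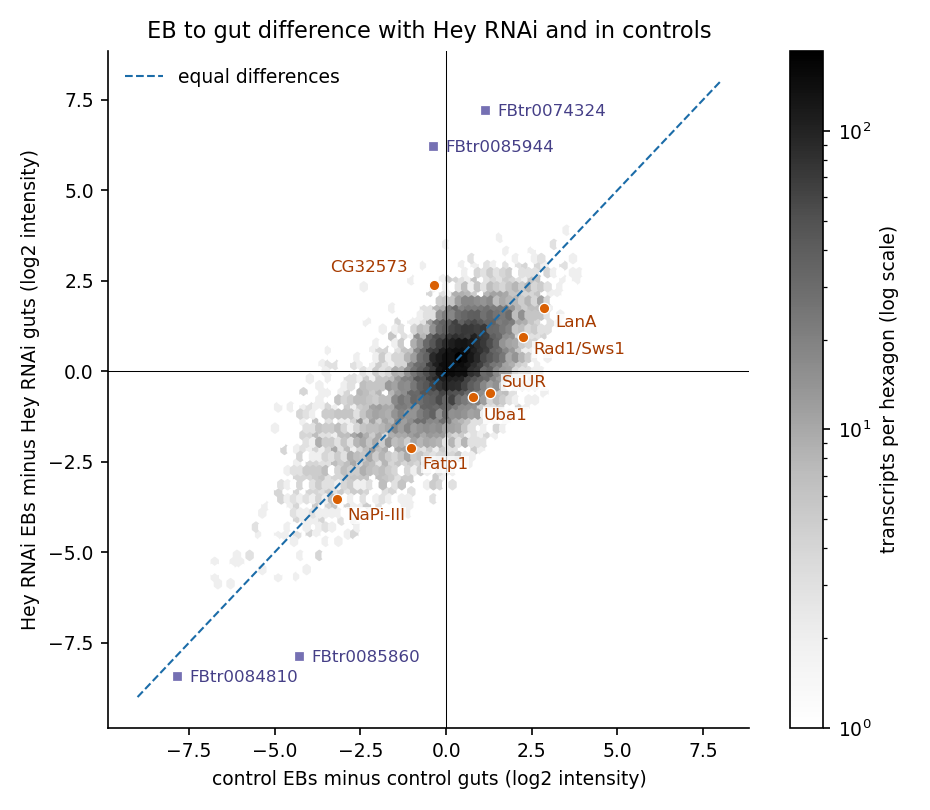
Each transcript's difference between Hey RNAi EBs and Hey RNAi guts (y axis, log2 intensity) against its difference between control EBs and control guts (x axis, log2 intensity), as counts per hexagon on a log scale of grey, with named transcripts as points and the line of equal differences dashed. The cloud follows the line with a slope of 0.67, with NaPi-III near it, LanA and Rad1/Sws1 below it, SuUR and Uba1 in the quadrant of turned signs, and FBtr0074324 and FBtr0085944 far above it.

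Measured on each array, the called lists showed where the gap between EBs and guts had moved. For every array, the median log2 intensity of the transcripts called lower in EBs was subtracted from that of the transcripts called higher. With the lists of the control calls, this gap was 2.74, 1.85 and 1.44 log2 units in Hey RNAi EBs and 1.81, 2.99 and 2.25 in control EBs, and these arrays overlap. In Hey RNAi guts it was -1.59, -1.57 and -1.60, against -2.62, -2.5 and -2.36 in control guts. All Hey RNAi guts thus lay on the EB side of all control guts, with a mean of -1.59 ± 0.02 against -2.49 ± 0.13 (SD, n = 3 each), while the EBs averaged 2.01 ± 0.66 with Hey RNAi and 2.35 ± 0.60 in controls (SD, n = 3 each).

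These lists were chosen on the control arrays, which favours a wide gap in controls. With the lists of the Hey RNAi calls, a choice that favours a wide gap with Hey RNAi, Hey RNAi guts again lay on the EB side, at -2.06 ± 0.04 against -2.47 ± 0.05 in control guts (SD, n = 3 each). The EBs then stood at 3.41, 2.27 and 2.34 with Hey RNAi and at 0.80, 1.85 and 1.41 in controls, without overlap. On the deposited values with no further normalization the guts kept this order without overlap in both pairs of lists, at -2.07 to -1.91 in Hey RNAi guts against -2.48 to -2.25 in control guts with the Hey RNAi lists, and at -1.52 to -1.46 in Hey RNAi guts against -2.5 to -2.18 in control guts with the control lists. For the EBs the arrays then overlapped in both, at 2.28 to 2.54 in Hey RNAi EBs against 0.78 to 2.54 in control EBs with the Hey RNAi lists. The gut side of the gap was therefore smaller in Hey RNAi flies with either choice of lists, with quantile normalization and on the deposited values (centring an array leaves its gap as it is), and the EB side depended on both. No test was made over these lists.

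**Figure D4:**
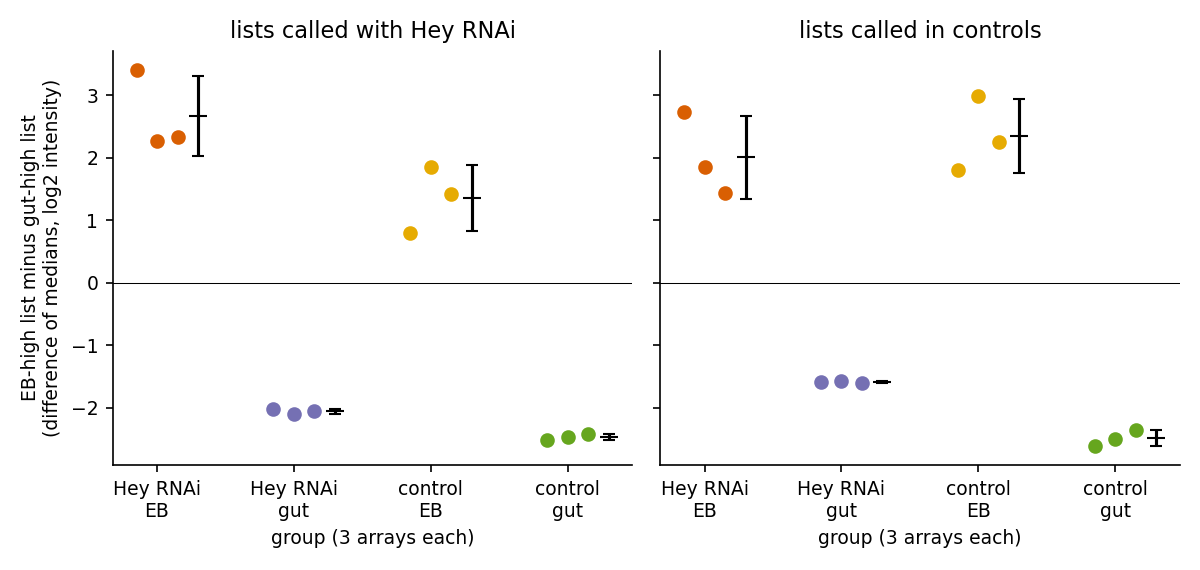
Median log2 intensity of the transcripts called higher in EBs minus that of the transcripts called lower (y axis), for each of the 12 arrays by group (x axis), with lists called in Hey RNAi flies on the left and in controls on the right; ticks with bars give the mean and SD (n = 3). Hey RNAi guts lie above control guts in both panels (-2.06 against -2.47 and -1.59 against -2.49), and Hey RNAi EBs lie above control EBs in the left panel only.

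Whether a difference itself changed was tested in a fit over all 12 arrays, as the EB to gut difference with Hey RNAi minus that in controls. It changed for 1975 transcripts (12.8%; limma adjusted p under 0.05, with no limit on the fold). Of these, 380 (2.46% of all transcripts) were narrowed, with a smaller difference of the same sign with Hey RNAi, 442 (2.86%) were widened, and 1153 (7.45%) had the opposite sign. Of the 1153 turned transcripts, 31 were called higher in Hey RNAi EBs and lower in control EBs, and 25 the other way. Neither difference was called for 429. These counts use the separate calls of each comparison. With calls from the fit over all 12 arrays, both differences were called for 69. The order of narrowed and widened counts was not stable, at 585 narrowed and 460 widened when control EB 1 was left out, 431 and 682 when Hey RNAi EB 2 was, and 299 and 232 with each array centred on its median.

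Changed differences went more often with the EBs than with the guts. The EBs of the genotypes differed more than the guts did for 83.4% of the 1975 transcripts, against 66.3% of all transcripts. This share was 90.3% among widened, 87.3% among turned and 63.7% among narrowed transcripts. The 213 transcripts widened upwards had medians of 11.73 in Hey RNAi EBs and 9.51 in Hey RNAi guts, against 10.20 in control EBs and 9.48 in control guts. The 177 transcripts that were lower in control EBs and narrowed had medians of 9.51 in Hey RNAi EBs and 10.60 in Hey RNAi guts, against 8.24 in control EBs and 11.82 in control guts. The 203 narrowed transcripts that were higher in control EBs had medians of 11.05 in Hey RNAi EBs and 10.25 in Hey RNAi guts. In controls these were 11.77 in EBs and 9.55 in guts. In these medians the genotypes of the widened transcripts differed mainly in the EBs, and those of the narrowed ones in both tissues. Transcript by transcript, the median change of the 203 was -0.93 in EBs and 0.37 in guts. The EBs changed more for 71.4% of the 203 and for 54.8% of the 177. EB arrays also varied more among themselves than gut arrays, and the part of that spread in these shares was not tested.

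The count of changed differences depended on the scaling, and it fell when any gut array was left out. On the deposited values with no further normalization 323 transcripts passed, 49 narrowed, 63 widened and 211 turned. The count was 967 without Hey RNAi gut 1 and 1039 without either of the other Hey RNAi guts. It was 1016, 1055 and 1321 without control gut 1, 2 or 3. Leaving out an EB array gave from 1409 (control EB 2) to 2539 (Hey RNAi EB 2). With the replicate number as a block within each tissue 2732 passed.

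Of the 44 transcripts with a symbol, the difference changed for 10 (22.7%, beside 12.8% of all transcripts), of which 1 was narrowed, 3 were widened and 6 turned. SuUR, which suppresses replication of late-replicating DNA in polyploid cells, had the most negative change. On the scale common to all 12 arrays it was at 11.76, 12.17 and 11.35 in Hey RNAi EBs and 12.35, 12.51 and 12.28 in Hey RNAi guts, against 13.45, 13.13 and 12.78 in control EBs and 11.79, 11.80 and 12.07 in control guts. EBs were below guts with Hey RNAi and above guts in controls, with no overlap between EBs and guts in either genotype. The difference was -0.60 ± 0.24 log2 units with Hey RNAi (SE; limma adjusted p = 0.0903) and 1.27 ± 0.23 in controls (SE; limma adjusted p = 0.00541). Its change of -1.86 ± 0.33 (SE; limma adjusted p = 0.0071) passed in all 21 alternatives.

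Uba1, the ubiquitin-activating enzyme, also turned. It was at 12.75, 13.51 and 13.11 in Hey RNAi EBs and 13.74, 13.96 and 13.90 in Hey RNAi guts, against 13.48, 14.11 and 13.82 in control EBs and 12.97, 12.98 and 13.12 in control guts. EBs were thus below guts with Hey RNAi and above them in controls, at -0.72 and 0.80 log2 units, neither of which reached 2-fold. The change of -1.52 ± 0.31 (SE; limma adjusted p = 0.0132) was lost only with no further normalization (limma adjusted p = 0.054). Wdr24 belongs to GATOR2, a protein complex upstream of the growth regulator TORC1. It differed by -0.39 with Hey RNAi and 0.66 in controls, and its change was -1.05 ± 0.28 (SE; limma adjusted p = 0.0352). Another GATOR2 subunit, mio, differed by 0.28 with Hey RNAi and 0.60 in controls, and its change missed the threshold (limma adjusted p = 0.65). The transcript of CG5116 and CG42488 was turned as well, at -0.74 with Hey RNAi and 0.46 in controls (limma adjusted p of the change 0.0316).

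Rad1, a subunit of the 9-1-1 clamp of the DNA damage checkpoint, shares its transcript with Sws1 and was the narrowed case. It was at 8.9, 9.74 and 9.43 in Hey RNAi EBs and 8.48, 8.26 and 8.41 in Hey RNAi guts, against 9.73, 10.40 and 10.12 in control EBs and 7.70, 7.79 and 8.13 in control guts. EBs were above guts in both genotypes, by 0.95 log2 units with Hey RNAi and 2.24 in controls, and the change was -1.24 ± 0.35 (SE; limma adjusted p = 0.0424). Fatp1 was the widened case with the largest change, at -2.12 with Hey RNAi and -1.01 in controls (-1.21 ± 0.34, SE; limma adjusted p = 0.0412). On the common scale Fatp1 was at 9.83, 10.51 and 10.75 in Hey RNAi EBs, below the 12.49, 12.14 and 12.13 of control EBs.

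The transcript of CG31917 and Tfb5, a subunit of the general transcription factor TFIIH, was widened upwards, at 0.94 with Hey RNAi and 0.21 in controls (limma adjusted p of the change 0.0348). So was that of CG30100 and CG42372 (limma adjusted p of the change 0.0309). The transcript of CG32573 and CG42512 was turned, at 2.39 with Hey RNAi and -0.35 in controls, with a change of 2.69 ± 0.44 (SE; limma adjusted p = 0.00473). Its small control difference was above 0 after centring every array on its median, where the transcript counted as widened. With no further normalization its change missed the threshold (limma adjusted p = 0.0532). The calls of Rad1, Fatp1, Wdr24, CG5116, CG31917 and CG30100 were lost in 8 to 14 of the 21 alternatives each, among them each that left out a Hey RNAi gut array. Those of Fatp1 and CG5116 were also lost with the replicate number as a block within each tissue (limma adjusted p = 0.0724 and 0.0665). The last of the 10 transcripts, of PIG-M, a mannosyltransferase of GPI anchor synthesis, and several uncharacterised genes, was named after its values were seen, at -0.76 with Hey RNAi and 0.21 in controls (limma adjusted p of the change 0.0442).

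Both transcripts without a symbol that were named for the most positive difference of EB minus gut had a changed difference. FBtr0074324 averaged 12.99 ± 0.28 in Hey RNAi EBs and 5.78 ± 0.13 in Hey RNAi guts, against 7.20 ± 0.29 in control EBs and 5.99 ± 0.15 in control guts (SD, n = 3 each). FBtr0085944 averaged 12.42 ± 0.17 in Hey RNAi EBs and 6.19 ± 0.45 in Hey RNAi guts, against 5.26 ± 0.88 in control EBs and 5.64 ± 0.34 in control guts (SD, n = 3 each). They stood out in Hey RNAi EBs alone, and their differences changed by 6.01 and 6.60 log2 units (limma adjusted p = 9.13e-06 and 0.000185). The most gut-enriched transcript, FBtr0084810, did not pass, with differences of -8.41 with Hey RNAi and -7.86 in controls (limma adjusted p of the change 0.392). FBtr0085860 was at -7.87 with Hey RNAi and -4.29 in controls, where control EBs spread between 5.58 and 9.49, and its change missed the threshold (limma adjusted p = 0.0529).

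**Figure D5:**
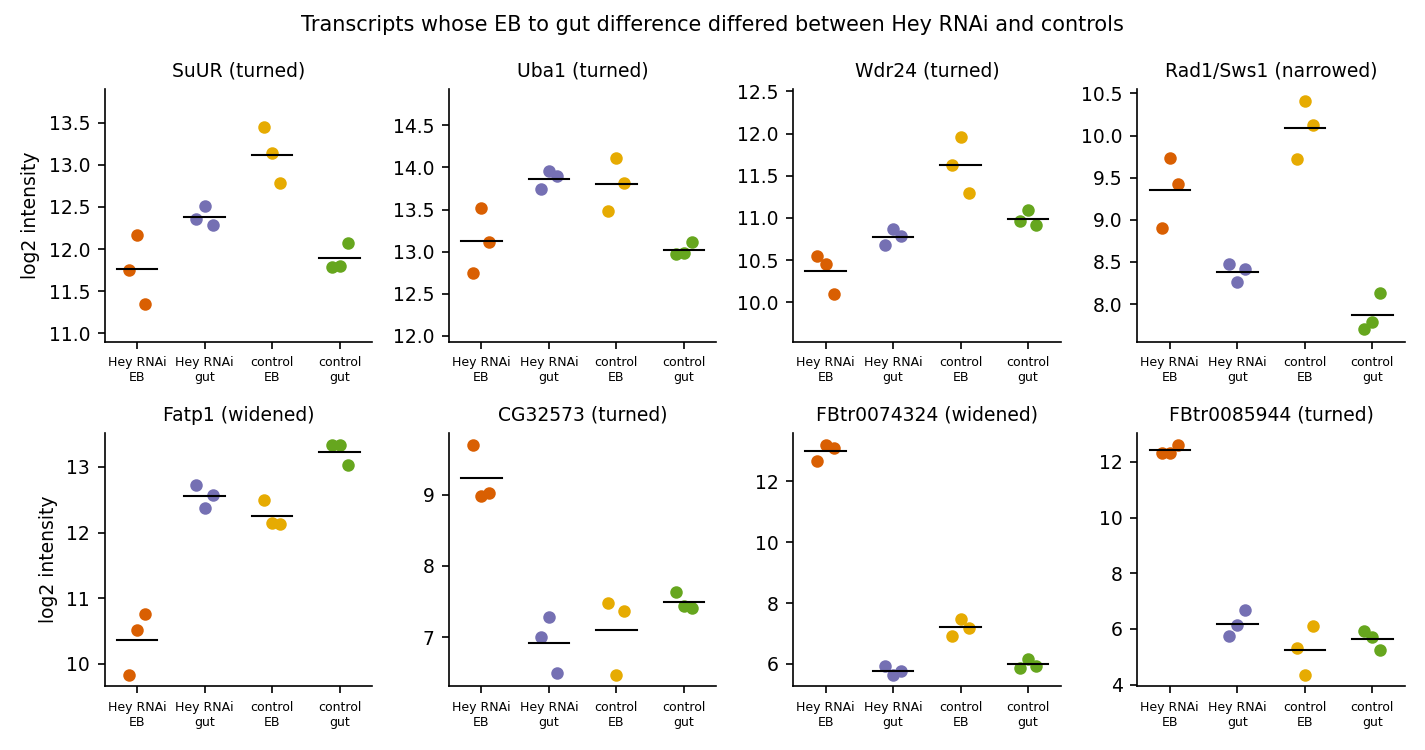
Log2 intensity (y axis, quantile normalized over the 12 arrays, with its own range in each panel) of 8 transcripts whose difference changed, with a point for each array in Hey RNAi EBs, Hey RNAi guts, control EBs and control guts (x axis) and a line at each mean. SuUR, Uba1 and Wdr24 are lower in EBs than in guts with Hey RNAi and higher in EBs in controls, and FBtr0074324 and FBtr0085944 are high in Hey RNAi EBs alone (means of 12.99 and 12.42).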

How the data were processed

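After amplification, RNA from purified EBs or whole guts was labelled with Cy3 for 1-colour NimbleGen arrays. The authors extracted the data in NimbleScan and normalized and tested them in ArrayStar, and the submitters' processing notes name RMA. The deposited matrix holds 1 linear intensity per transcript and array. Which of these steps the values passed through is not given in the sources used here. Deposited tables of the authors' own group means, fold changes, t values and p-values were not used.

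Intensities were taken to log2 and quantile normalized over the 6 arrays of a comparison, or over all 12 for the test of the change in difference. This gives EBs and guts the same distribution and can hide a shift common to most transcripts. limma 3.58.1 in R 4.3.3 (lmFit, eBayes) was used with no filter. Calls needed an adjusted p under 0.05, by Benjamini-Hochberg across the 15473 transcripts, and at least a 2-fold difference, and a change in difference needed the adjusted p alone. The fits had 4 or 8 residual degrees of freedom, and the number of arrays limits the precision. A single spread is shared by EBs and guts in each fit. The scripts were tested on simulated data.

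Replicates are described as independent crosses. Deviations of same-numbered arrays from their group means correlated at 0.069, 0.015 and 0.026 between Hey RNAi EBs and Hey RNAi guts, so the numbers did not pair them. Between Hey RNAi and control EBs they correlated at 0.183, 0.321 and 0.127, and between guts at 0.168, 0.005 and 0.256. Same-numbered EB arrays, and guts 1 and 3 though not 2, were thus related in the data, though not described as pairs. Same-numbered Hey RNAi and control arrays also fell into the same set of mean intensity for guts 1, 2 and 3 and EBs 1 and 2. For EB 3 they did not. The fit that gave 1975 changed differences leaves out this pairing, and a replicate block within each tissue gave 2732.

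Symbols came from RefSeq gene synonyms (Release 6 plus ISO1 MT assembly). Named were, among transcripts with a symbol, the 12 called ones with the largest and the 12 with the smallest difference (of which 5 and 5 existed), the 5 largest changes in each class, and called members of the lists, and, without a symbol, the 2 largest and 2 smallest. Members, lists and tests were chosen with earlier results of these data known.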

Additional observations from a re-analysis of the deposited data

Results flagged for a closer look

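The EB to gut difference with Hey RNAi was set against the same difference in controls, and it differed by the test of the change itself for 1975 transcripts (limma adjusted p under 0.05). Among the named transcripts with a symbol, the change, as the Hey RNAi difference minus the control difference, was 2.69 log2 units for the transcript of CG32573/CG42512, -1.86 for SuUR, -1.52 for Uba1, -1.24 for Rad1/Sws1, -1.21 for Fatp1, -1.21 for CG5116/CG42488, -1.05 for Wdr24, 0.85 for CG30100/CG42372 and 0.77 for CG31917/Tfb5. For the transcripts without a symbol it was 6.01 for FBtr0074324 and 6.60 for FBtr0085944. Groups of 3 arrays are too small for a test of single outlying arrays.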

How the results depend on the processing

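Of 257 values under alternatives, 214 stayed within 1.5 times the count or 1 SD of the slope, and 43 did not, most of them counts of changed differences. Some of the 214 could not move. A replicate block over all arrays or an intensity trend in the error leaves the differences, and so the slope of 0.67, as they are. With no further normalization 323 differences changed, 49 narrowed, 63 widened and 211 turned, where the median standard error was 0.59 in place of 0.41. With array weights the counts were 4041, 1015, 998 and 2028, and with the intensity sets as a random block, chosen after seeing the data, 3424, 740, 871 and 1813. Widened differences numbered 232 with each array centred on its median, 675 with the replicate block within tissue, where narrowed ones numbered 572, and 776 with the intensity sets as a block, both of these fits also chosen after seeing the data. The block within tissue leaves only the change estimable, and the classes there use the group means without it. Over the arrays left out in turn, the count of changed differences ran from 967 (without Hey RNAi gut 1) to 2539 (without Hey RNAi EB 2), narrowed from 151 to 585, widened from 209 to 682 and turned from 607 to 1426. Transcripts higher in EBs numbered 4615 in controls with median centring, beside 1808 lower, so that 71.9% of control calls were higher in place of 54.0%. With no fold limit those higher numbered 3226 with Hey RNAi and 4068 in controls. The cause was not tested for any of these.

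The replicate block over all arrays gave 4093 calls between Hey RNAi EBs and Hey RNAi guts and 1896 changed differences, of which those of Fatp1, CG5116 and CG31917 were lost. Leaving out an array gave 3243 to 4915 calls between Hey RNAi EBs and Hey RNAi guts, 1639 to 2564 higher and 1604 to 2351 lower. For the 14 named transcripts called in that comparison, 221 of 223 values kept the call and 2 lost it (sle and CG6191, given with their values). For the 6 named ones not called, 90 of 96 values stayed short of a call and 6 passed (Rad1 in 5 settings, CG31917 in 1). Of all these, 0 reversed. Sets of like mean intensity as a block left too few arrays for a fit of the 6 arrays alone, and were fitted over 12, with 4600 calls.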
